A study of Mus musculus with 2 samples.

Results

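The DRACH sites of short internal coding exons were examined in mouse brain RNA: 1380 adenosines called as m6A that lie in the coding sequence of an exon under 200 nt with an exon on either side. DRACH is the 5-base motif around the methylated A (in IUPAC letters, where D is any base but C, R a purine and H any base but G). Members were taken from the union of both deposited site lists, by the GRCm38 5-mer at the site and by the longest protein-coding transcript of GENCODE M21 that covers it on the same strand, among transcripts whose coding sequence is complete and that have both UTRs. They made up 1380 of 219409 sites in all, and 1380 of the 33565 DRACH sites in coding sequence. The cerebellum list held 357 of them among its 79355 sites, the cerebrum list held 1153 among its 188295, and 130 were in both. They lay in 1296 exons of 1143 genes, and those exons held a further 3534 DRACH adenosines that neither library called.

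The 2 libraries were made by GLORI, in which glyoxal and nitrite deaminate unmethylated adenosines so that only m6A is still read as A. One was of the cerebellum and the other of the cerebrum of a female F1r pup at P0, the hybrid of a C57BL/6J mother and a PWK/PhJ father, and both were of poly(A)-selected RNA given the GLORI+ treatment. Each tissue had 1 library and, per the methods, both came from 1 animal, so no difference between the tissues was tested. The lists hold positions without a methylation rate or a read count: the depth is unknown, and absence from a list does not tell an unmethylated adenosine from one in RNA that was not expressed or had few reads. The cerebrum list was deposited under a name that also holds the study's short form of cerebellum, and tissues here follow the sample labels. As a check of the labels, 9 of 13 cerebellar marker genes had a DRACH site in the cerebellum library (Atoh1, Hoxa2, Pax2 and Skor2 had none) against 4 in the cerebrum library, and 5 against 13 of 13 forebrain markers had one.

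m6A is written on nascent RNA by a complex around METTL3 and METTL14, which methylates part of the DRACH motifs it could reach. Splicing leaves an exon junction complex upstream of each junction, and this complex and its partners are known to keep the writer off nearby RNA. In an internal exon that is short, the whole sequence is near a junction, whereas long internal exons and last exons have stretches far from one, which is where most m6A of messenger RNA is found.

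The windows below show the 2 exons with the most members found in both libraries, with their called and uncalled DRACH adenosines in order along the transcript. Each window is 29 nt of GRCm38, 5′ to 3′ on the transcript strand (T stands for U), with the DRACH 5-mer in capitals and the A at its centre. The first is exon 6 of 13 of Cdh11 (chr8:102667998-102668165, minus strand, 168 nt), a cadherin of cell adhesion, where 5 of 7 DRACH adenosines were called.
Cdh11 chr8:102668140-102668168 (minus strand), uncalled: taggtatcatcaGGACAgcccttcccaat
Cdh11 chr8:102668121-102668149 (minus strand), called in both libraries: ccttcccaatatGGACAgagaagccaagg
Cdh11 chr8:102668076-102668104 (minus strand), called in cerebrum: gatccaggccaaGGACAtgggtggacaca
Cdh11 chr8:102668066-102668094 (minus strand), called in both libraries: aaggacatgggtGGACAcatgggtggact
Cdh11 chr8:102668054-102668082 (minus strand), called in both libraries: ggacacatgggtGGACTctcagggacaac
Cdh11 chr8:102668044-102668072 (minus strand), called in both libraries: gtggactctcagGGACAaccaaagtgacg
Cdh11 chr8:102668020-102668048 (minus strand), uncalled: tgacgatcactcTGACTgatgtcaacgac

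All 5 called adenosines of the Cdh11 exon had a G on both bases before the A. A further motif of this kind, 11 nt from the 5′ edge of the exon, was uncalled. The next is exon 3 of 14 of Ppp2r5e (chr12:75515602-75515798, minus strand, 197 nt), a B56 regulatory subunit of protein phosphatase 2A, with 5 of 8 DRACH adenosines called. Among its 3 uncalled motifs, 2 began with T.
Ppp2r5e chr12:75515759-75515787 (minus strand), called in cerebellum: tcagagcagcctGAACTgttcctaaagaa
Ppp2r5e chr12:75515744-75515772 (minus strand), uncalled: ctgttcctaaagAAACTtcagcagtgctg
Ppp2r5e chr12:75515718-75515746 (minus strand), uncalled: ctgtgtcattttTGACTtcatggacacgc
Ppp2r5e chr12:75515709-75515737 (minus strand), called in both libraries: ttttgacttcatGGACAcgctatctgatc
Ppp2r5e chr12:75515657-75515685 (minus strand), called in both libraries: tccactcttaatGAACTggtggactacat
Ppp2r5e chr12:75515649-75515677 (minus strand), called in both libraries: taatgaactggtGGACTacattacaataa
Ppp2r5e chr12:75515620-75515648 (minus strand), uncalled: gcagaggctgtcTGACAgagcagacttac
Ppp2r5e chr12:75515611-75515639 (minus strand), called in cerebrum: gtctgacagagcAGACTtaccctgaagta

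Exon 17 of 18 of Ephb6 (chr6:41619923-41620078, plus strand, 156 nt), an Eph receptor whose kinase domain is inactive, had all of its 5 DRACH adenosines called. It is shown as 1 of the 3 exons with 5 members. All 5 calls fell in the cerebrum library and 1 of them in the cerebellum library as well. Over all 1380 members, 1153 were in the cerebrum library and 357 in the cerebellum library. The whole lists held 188295 and 79355 sites.
Ephb6 chr6:41619929-41619957 (plus strand), called in cerebrum: ccaggctcttctGAACCctgtggccttgg
Ephb6 chr6:41619944-41619972 (plus strand), called in both libraries: ccctgtggccttGGACTtcccttgcctgg
Ephb6 chr6:41619959-41619987 (plus strand), called in cerebrum: cttcccttgcctGGACTctccccaggcct
Ephb6 chr6:41619990-41620018 (plus strand), called in cerebrum: ctttcagccattGGACTagagtgctacca
Ephb6 chr6:41620007-41620035 (plus strand), called in cerebrum: agagtgctaccaGGACAacttctccaagt

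The shortest exons with a member in both libraries are shown to give the lower end of the range, and bases beyond the exon edge belong to the flanking intron. Carmil3, a regulator of actin capping protein, and exon 16 of Rnf157, a RING-type ubiquitin ligase, had the A within 3 nt of the 5′ edge of exons of 64 and 66 nt. Lrch3 had it 3 nt from the 3′ edge of an exon of 49 nt. Slc39a7, a zinc transporter, and Ppp2r5a, another B56 subunit, had it in exons of 54 and 60 nt. In other annotated transcripts the adenosines of Slc39a7 and Carmil3 lie in a longer exon, so these calls may not come from the short form. No such longer exon is annotated for Lrch3, Ppp2r5a and exon 16 of Rnf157, though another transcript skips the Rnf157 exon. The Carmil3 exon also has a called site nearby in a flanking intron. In Carmil3 the A lies 1 nt from the 5′ edge, so the first base of its marked 5-mer is in the intron.
Lrch3 chr16:32994979-32995007 (plus strand), called in both libraries: ttcctatgacagAGACAggtaatagaaac
Slc39a7 chr17:34030367-34030395 (minus strand), called in both libraries: cagcctggacatGGACActcccacagtgg
Ppp2r5a chr1:191357819-191357847 (minus strand), called in both libraries: atatatgaaacgGAACAtttcaatggtgt
Carmil3 chr14:55501817-55501845 (plus strand), called in both libraries: tccgtttctgcaGGACActatggccatca
Rnf157 chr11:116347081-116347109 (minus strand), called in both libraries: ctcttttacaggAGACAccagcagagtcc

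DRACH adenosines in short internal coding exons were called far less often than those elsewhere in the coding sequence of the same genes. Of 203531 DRACH adenosines in these exons of genes with a DRACH site, 0.678% (95% Wilson interval 0.643 to 0.715) were called in either library. The share over all coding sequence was 8.35% (33565 of 402116), in internal exons of 200 nt or more it was 14.53% (14.32 to 14.74, 15809 of 108801), and in the coding part of last exons 19.95% (19.65 to 20.25, 13736 of 68866). The short exons thus held 50.61% of the DRACH adenosines of coding sequence and 4.11% of its DRACH sites. With the gene as stratum, which compares exons of 1 gene with each other, the Mantel-Haenszel odds ratio of being called was 0.0516 (95% interval 0.0478 to 0.0557) against long internal exons and 0.0323 (0.0296 to 0.0352) against last exons. These intervals take sites as independent units and cover counting error over sites only.

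Both libraries had the difference. In the cerebellum library 0.175% of DRACH adenosines of short exons and 8.12% of those of long internal exons were called, and in the cerebrum library 0.567% and 13.48%. The odds ratio against long internal exons was 0.0260 (0.0224 to 0.0303) with cerebellum sites alone and 0.0476 (0.0437 to 0.0517) with cerebrum sites alone, and against last exons 0.0182 (0.0155 to 0.0215) and 0.0298 (0.0271 to 0.0327). For calls made in both libraries the shares were 0.0639% and 7.06%, a ratio of 110.6, against 21.43 for calls in either. On each of the 19 autosomes the share was lower in the short exons, between 0.373% and 0.848%, than in long internal exons, between 9.94% and 16.2%. Among exons, 1296 of 72988 short exons with a DRACH motif (1.78%) carried a member, while 28.05% of the long internal exons carried a site. This contrast per exon also reflects the number of motifs. The 72988 short exons held 203531 DRACH adenosines and the 12836 long ones 108801, so a long exon held more on average.

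Adenosines outside the motif were compared as well, since they give the level of calls without DRACH. In short exons 0.395% of 2328227 such adenosines were called, in long internal exons 0.532% and in last exons 0.612%. The call share of DRACH over other adenosines was therefore 1.72 in short exons, 27.3 in long internal exons and 32.58 in last exons. DRACH motifs made up 13.05% of the called adenosines of short exons, 70.62% of those of long internal exons and 74.07% of those of last exons, although they were about as frequent among the adenosines of each class, 8.04%, 8.09% and 8.06%. Among adenosines called in both libraries, the ratio in short exons was 3.44 and the DRACH share 23.13%, and in long internal exons 89.81 and 88.77%. What share of the members is methylated was not tested.

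Members were also less often shared than the DRACH sites of other coding exons. The same held for called adenosines outside the motif. Of those, 4.7% were in both libraries in short exons, 14.78% in long internal and 20.63% in last exons. Of the members in the cerebellum library 36.41% (95% Wilson interval 31.59 to 41.53) were in the cerebrum library, against 87.04% (86.33 to 87.73) of the DRACH sites of long internal exons. Of those in the cerebrum library 11.27% (9.58 to 13.23) were in the cerebellum library, against 52.4% (51.59 to 53.21). Over the union, 130 of 1380 members (9.42%, 7.99 to 11.08) were in both, against 48.61% in long internal and 44.66% in last exons. The whole lists, of any motif and region, held 79355 cerebellum and 188295 cerebrum sites, with 219409 in their union. They thus overlap only in part as well. The share of members in both rested on the exon limit, at 6.89% for exons under 150 nt and 14.25% for exons under 250 nt. Tissue and library cannot be told apart here, with 1 library of each.

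**Figure D1:**
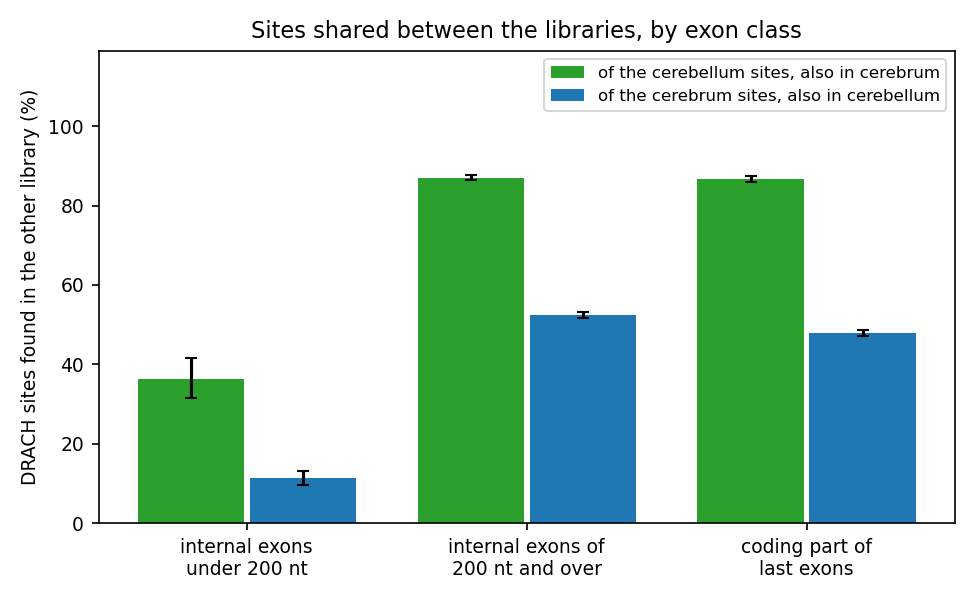
Share of the DRACH sites of each library (y axis, %) that were also in the other library, for 3 classes of coding exon; bars are shares and error bars 95% Wilson intervals over sites. The short exons stand apart, at 36.41% of cerebellum and 11.27% of cerebrum sites, while the other classes lie close to each other.

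The share called was higher in the longer of the short exons and higher again beyond the limit. The shortest exons, under 50 nt, had 0.502% (0.314 to 0.802, 17 of 3387), an interval that includes the values of the next classes. DRACH adenosines of exons of 50 to 99 nt were called at 0.457% (0.3995 to 0.523), those of 150 to 174 nt at 0.793% (0.708 to 0.887) and those longer still, up to the limit, at 1.11% (0.99 to 1.24). The odds ratio of short exons of 150 nt or more against those under 100 nt of the same genes was 1.90 (1.57 to 2.30), and 3.50 (1.82 to 6.76) for calls made in both libraries. It was 2.93 (1.94 to 4.42) with cerebellum sites alone and 1.81 (1.48 to 2.22) with cerebrum sites alone. In exons of the last 10 nt below the limit the share was 1.45% (1.23 to 1.70, 148 of 10237). In those of the first 10 nt from it the share was 1.77% (1.52 to 2.07, 156 of 8794), with overlapping intervals. For calls made in both libraries these shares were 0.205% (0.134 to 0.313) and 0.375% (0.267 to 0.5265), whose intervals also overlap. Longer exons went on to 2.30% at 200 to 249 nt, 10.05% at 300 to 399 nt and 24.85% at 1000 nt and over.

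**Figure D2:**
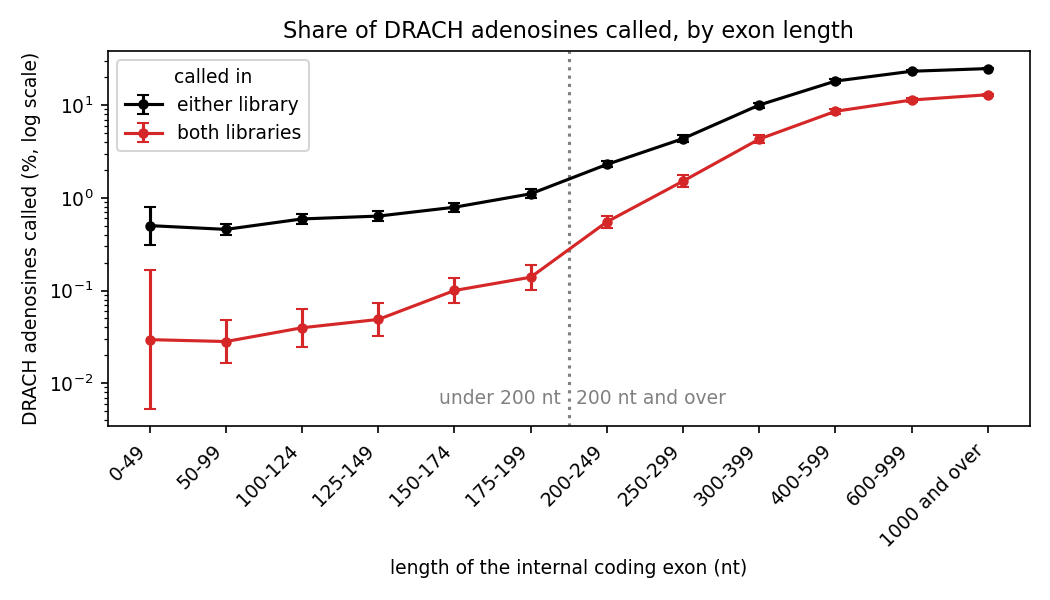
Share of DRACH adenosines called (y axis, %, log scale) by length of the internal coding exon in nt (x axis), for calls in either library and for calls made in both; points are shares and error bars 95% Wilson intervals. For calls in either library, each length class below 200 nt lies at or under 1.11% and the class of 1000 nt and over at 24.85%, against 12.98% there for calls made in both.

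Distance to the exon edge was next compared. In short exons the share called was 0.628% within 25 nt of the nearer edge, 0.576% at 25 to 49 nt, 0.853% at 50 to 74 nt and 1.39% (1.15 to 1.67) at 75 to 99 nt, while in long internal exons it went from 2.24% within 25 nt to 7.83% at 75 to 99 nt. In the same bands of distance from the nearer edge the short exons thus stayed lower. Among adenosines 50 to 99 nt from it the odds ratio of short against long internal exons of the same gene was 0.149 (0.130 to 0.172). Among those under 50 nt it was 0.224 (0.198 to 0.254). The distance to the other edge was not matched, nor the spread within a band. At 50 to 74 and 75 to 99 nt the short exons had 35513 and 7867 DRACH adenosines, the long ones 12883 and 12960. Within the exons that carry a member, being 50 nt or more from both edges gave an odds ratio of 1.26 (1.08 to 1.46) with the exon as stratum, against 4.03 (3.70 to 4.39) in long internal exons, a ratio of the odds ratios of 0.312 (0.262 to 0.372). The edge effect in short exons rested on the settings: it was 1.003 (0.875 to 1.15) with a limit of 30 nt and 0.993 (0.761 to 1.30) in exons under 150 nt. Without strata, 27.99% of the adenosines of these exons at 50 nt or more and 28.12% of the nearer ones were called. For calls made in both libraries the odds ratio was 2.05 (1.24 to 3.38).

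**Figure D3:**
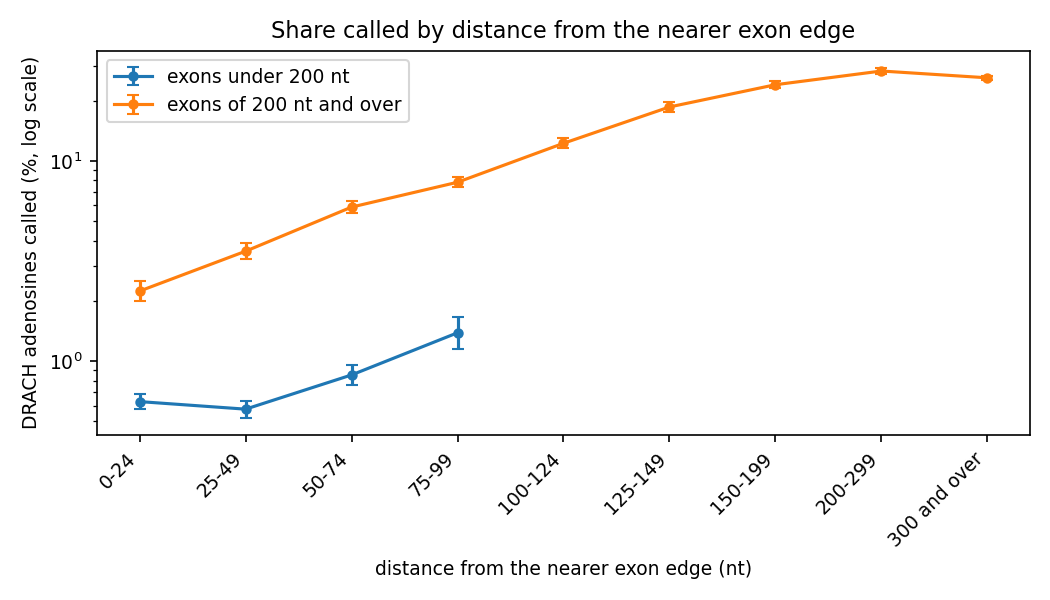
Share of DRACH adenosines called in either library (y axis, %, log scale) by distance in nt from the nearer exon edge (x axis), in internal exons under 200 nt and of 200 nt and over; error bars are 95% Wilson intervals. At each distance from 0 to 99 nt the short exons lie below the long ones, with 1.39% against 7.83% at 75 to 99 nt.

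The called and uncalled adenosines of the same exons differed in their 5-mer. The exons were chosen for holding a call, which sets the total of 28.08% called (1380 of 4914), so the shares of the 5-mers are read against each other only. GGACT was called at 269 of 427 adenosines (63.0%), GAACT at 164 of 331 (49.55%), GGACA at 186 of 454 (40.97%) and AGACT at 135 of 358 (37.71%). The other 14 of the 18 DRACH 5-mers lay between 6.76% for TAACC (5 of 74) and 28.97% for TGACT (84 of 290). Over all short exons, 2.5% of GGACT adenosines were called, against 32.67% in long internal exons, and for GGACT alone the odds ratio of short against long was 0.0514 (0.0396 to 0.0667). For each of the 18 5-mers the share was higher in long internal exons, by 6.01 to 66.96 times.

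Base by base, T at the last position of the 5-mer had an odds ratio of 2.99 (2.58 to 3.46) against A or C in the same exon. G before the A had 1.57 (1.36 to 1.82) against A, and T at the first position 0.518 (0.434 to 0.618) against A or G. The preference for T at the last position was smaller than in long internal exons, where its odds ratio was 5.75 (5.499 to 6.02), and the ratio of both was 0.519 (0.445 to 0.605). For G before the A and for T at the first position the ratios were 0.90 (0.774 to 1.05) and 1.02 (0.852 to 1.23), whose intervals include 1. When only members in both libraries counted as called, the odds ratios lay further from 1, at 5.54 (3.27 to 9.39) for T at the last position, 2.71 (1.57 to 4.70) for G before the A and 0.218 (0.106 to 0.450) for T at the first position.

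Bases outside the motif differed too. Counting from the A, T at the base 4 nt downstream stood at 39.78% of called and 23.49% of uncalled adenosines (odds ratio 2.10, 1.82 to 2.43), and A at the base 4 nt upstream at 41.96% and 28.18% (1.89, 1.64 to 2.18). T at 3 nt upstream had an odds ratio of 1.85 (1.60 to 2.14), and G at 4 nt downstream had 0.557 (0.468 to 0.664). In long internal exons the same contrasts gave 2.74, 1.98, 1.86 and 0.531, and of these only T at 4 nt downstream had a ratio of odds ratios that left out 1, at 0.768 (0.659 to 0.894). In all, 64 combinations of offset and base were compared and 26 had an interval that left out 1.

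The reading frame was compared because these adenosines are all coding. Called were 32.36% of DRACH adenosines at codon position 3, 28.59% at position 2 and 23.52% at position 1. Position 3, where many changes are synonymous, had an odds ratio of 1.39 (1.19 to 1.63) against the others in the same exon, and 1.32 (1.10 to 1.58) in a conditional logistic model that held the 5-mer bases and the edge distance as well. In long internal exons it was 1.18 (1.13 to 1.24), with a ratio of 1.18 (1.001 to 1.39).

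The exon's surroundings went with the share called, over all short internal coding exons and with the gene as stratum. In exons just upstream of the last exon 1.15% of DRACH adenosines were called, against 0.629% further upstream (odds ratio 1.60, 1.35 to 1.89), and in genes with at least 5 DRACH sites elsewhere the odds ratio was 2.40 (1.94 to 2.96). Beside an internal exon of 400 nt or more it was 1.10% against 0.659% (1.75, 1.33 to 2.30), but for exons under 150 nt the odds ratio was 1.495 with an interval that included 1 (0.966 to 2.31). Over short exons of any length it was 2.95 (1.73 to 5.04) with cerebellum sites alone, 1.68 (1.25 to 2.27) with cerebrum sites alone and 4.30 (1.89 to 9.77) for sites in both. A called site of any motif within 100 nt into a flanking intron went with 1.88% (67 of 3562) against 0.657% (1.995, 1.48 to 2.69).

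Some short exons have another form in another annotated transcript, where the same adenosine lies in an exon of 200 nt or more, or in a first or last exon of any length. There 0.978% were called, against 0.577% where no such form is annotated (odds ratio 1.37, 1.19 to 1.57). Where the other form was an exon of 200 nt or more in another coding transcript, 1.82% were called (48 of 2632, odds ratio 2.19, 1.49 to 3.21). Of the members, 502 (36.38%) had another form, and of the 130 in both libraries 63 (48.46%). An exon of 200 nt or more was among the forms of 430 of the 502 members. The gap to long internal exons was as large when short-exon adenosines with another form were left out, with an odds ratio of 0.0469 (0.0429 to 0.0514). All adenosines of long internal exons were kept in this comparison. Exons that another transcript skips had 0.729% called and the others 0.674%, with overlapping intervals.

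**Figure D4:**
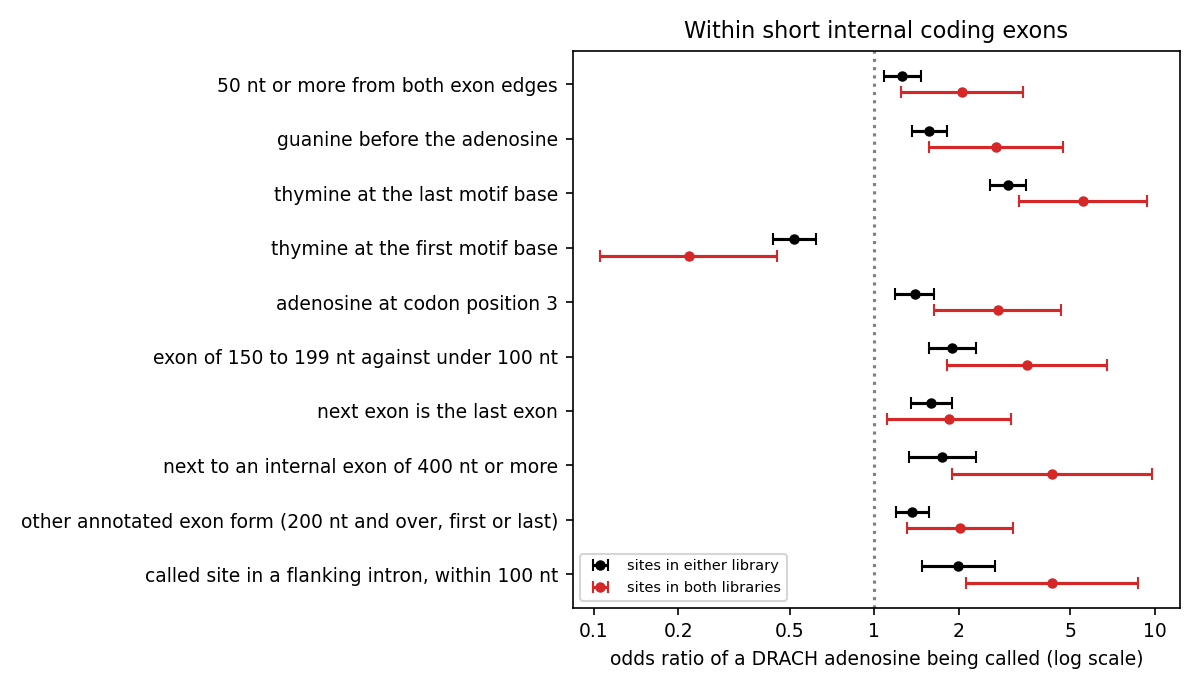
Odds ratios of a DRACH adenosine being called (x axis, log scale) for 10 contrasts within short internal coding exons, for sites in either library and in both; the first 5 contrasts compare adenosines of the same exon and the others exons of the same gene, and bars are 95% intervals. T at the last motif base has the highest value in either library, 2.99, and each contrast lies further from 1 for sites in both.

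The 130 members in both libraries differed from the whole set in the same properties. GGACT made up 33.08% (25.58 to 41.55) of them and 19.49% of all members, and 44.62% (36.35 to 53.19) lay 50 nt or more from both edges against 29.86%. Exons of 150 nt or more held 59.23% (50.64 to 67.3) against 44.28%. Their median distance to the nearer edge was 47 nt and their median exon length 159.5 nt, against 32 and 144 nt over all members. The 130 are part of the 1380, so these shares are a description.

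Most members were alone in their exon. Of the 1296 exons 1224 had 1 member, 66 had 2, 3 had 3 and 3 had 5 (Cdh11, Ppp2r5e and Ephb6, shown above). Of the 1143 genes 984 (86.09%) had another DRACH site on their coding transcripts, 934 (81.71%) had one in the last exon, and 159 had no other. The background genes without a member all have a DRACH site elsewhere, because they were chosen for having a site. These shares were therefore not compared with other genes.

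The 12 exons with the most members in both libraries had between 2 and 5 members, and 6 of the 12 belong to another annotated exon form. In the Cdh11 exon 4 of 5 members were in both libraries, and all but the first lay between 75 and 107 nt from the 5′ edge. In Ppp2r5e 3 of 5 were in both, and in other annotated transcripts this stretch lies in an exon of 200 nt or more and in a last exon. Tmed7 (exon 3 of 4, 128 nt), a p24 cargo receptor, had both of its DRACH adenosines called in both libraries, also in an exon with a longer form. In exon 4 of 8 of Tmem183a (chr1:134355560-134355716), which also has a longer form, 2 of 4 DRACH adenosines were called, both of them in both libraries.

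Sin3b, a scaffold of histone deacetylase complexes, had 2 of 4 DRACH adenosines of exon 14 of 19 (chr8:72750436-72750605, 170 nt) called in both libraries, 90 and 141 nt from the 5′ edge, and no other form of this exon is annotated. Fasn, the fatty acid synthase, had 2 of 6 called in both in exon 20 of 43 (chr11:120815291-120815470, 180 nt), 1 of them 8 nt from the 3′ edge. Nrxn2, a presynaptic neurexin, had 3 of 6 called in exon 15 of 23 (chr19:6491484-6491674, 191 nt), 1 in both. The remaining exons had 2 members each, 1 of them in both: Rnf157 exon 18 of 19, Tnpo2, a nuclear import receptor, exon 2 of 25, Ppib, a cyclophilin of the endoplasmic reticulum, exon 2 of 5, and Magi1, a scaffold of cell junctions, exon 23 of 25. The Rnf157 exon precedes a last exon of 2478 nt. The Magi1 exon has 2 called sites within 100 nt into its flanking introns.

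**Figure D5:**
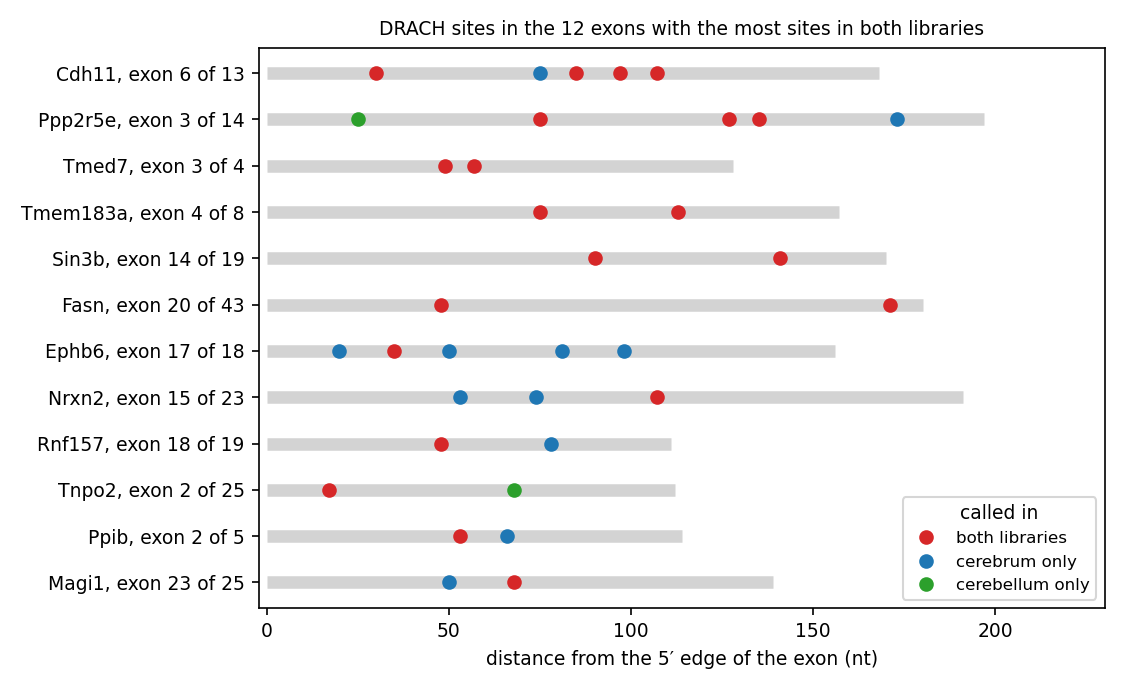
Position of the called DRACH adenosines (points, coloured by the library that called them) along the 12 exons with the most members in both libraries (bars, drawn to scale; x axis, nt from the 5′ edge of the exon). Cdh11 has 4 points in both libraries and Ppp2r5e 3, and in Ephb6 4 of 5 points were called in cerebrum only, as were 1023 of all 1380 members.

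By gene, the most members were 5, in Cdh11, Ppp2r5e and Ephb6, each in a single exon. Cdk12, a kinase of the RNA polymerase II tail, had 4, of which 3 were in exon 6 of 14 and none in the cerebellum library. Pisd, the phosphatidylserine decarboxylase, had 4 in exons 6, 7 and 8 of 9, all with another exon form and none in the cerebellum library. Over all members, 1023 of 1380 were absent from the cerebellum library, whose whole list was the shorter (79355 sites against 188295). Snrnp200, the helicase of the U5 particle, had 4 in 4 exons among 130 DRACH adenosines of its short exons. Fasn, Pced1a, Ppp2r5a and Rnf157 had 3 each, 2 of them in both libraries. They were named out of 28 genes with 3 members because ties went to more members in both libraries, then to the symbol. In Cdh11 the long internal exons had 10 of 24 DRACH adenosines called, and its short exons 5 of 28.

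The call share in short exons was next listed for 13 gene groups, beside the 0.678% over all genes. The 95% Wilson intervals of 9 groups included that value, and no difference between a group and the other genes was tested. For a group with 0 calls the limit given is 3 counts of its total, followed by the upper bound of its Wilson interval. The m6A writers (Mettl3, Mettl14, Wtap and others) had 0 of 134, which allows a share of up to 2.24% (Wilson 2.79%), while 34 of 191 (17.8%) were called in their long internal exons. The readers and erasers had 3 of 105 (2.86%, 0.976 to 8.07), against 63 of 145 (43.45%) in long internal exons. These were 2 adenosines in exon 11 of 17 of Ythdc1, the nuclear reader, GAACT 8 nt and TGACT 61 nt from its 5′ edge, the latter in both libraries, and 1 GGACT in exon 3 of 5 of Ythdf2, a cytoplasmic reader that promotes RNA decay, in cerebrum. In other annotated transcripts the Ythdc1 stretch lies in an exon of 200 nt or more and in a last exon.

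The exon junction complex and its partners had 2 of 502 called (0.398%, 0.109 to 1.44). One was a TGACA in exon 53 of 63 of Smg1, a kinase of nonsense-mediated decay, in both libraries, and the other a TGACT in exon 7 of 24 of Upf1, its helicase, in cerebellum. The SR splicing factors had 0 of 74 (up to 4.05%, Wilson 4.94%). Collagens had 0 of 1288, which allows up to 0.233% (Wilson 0.297%), and spectrins and ankyrins 0 of 551 (up to 0.544%, Wilson 0.692%), against 7 of 324 (2.16%) and 63 of 621 (10.14%) in long internal exons. These limits cover counting error only.

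Kinesins had 3 of 1145 called (0.262%, in Kif1b and Kif5b), dyneins 2 of 510 (0.392%, in Dync1i1 and Dync1i2), and DNA replication and repair genes 2 of 809 (0.247%, in Brca1 and Mcm7). Voltage-gated sodium and calcium channels had 10 of 784 (1.28%, 0.694 to 2.33) in 8 genes, among them Cacna1a and Scn2a, and none in both libraries. Histone lysine methylation enzymes had 12 of 1757 (0.683%, 0.391 to 1.19), against 492 of 1811 (27.17%) in long internal exons, and chromatin remodelers 6 of 1190 (0.504%). Cytosolic ribosomal proteins had 6 of 143 (4.20%, 1.94 to 8.85), 1 each in Rpl10, Rpl27a, Rpl4, Rps19, Rps2 and Rps27l, and none in both libraries. Over all members, only 9.42% were in both libraries. Ribosomal protein genes have many near-identical pseudogene copies, between which reads may be split. Whether this affected these calls was not tested, and they are uncertain.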

How the data were processed

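The authors treated poly(A) RNA with glyoxal and nitrite, mapped the reads to mm10 and to a copy of it that carries PWK bases, called m6A with GLORI-tools, united both sets, and retained sites above a methylation rate of 0.1 and a read count of 8. The deposited lists hold genomic positions with strand, and 0 columns of rates or reads, so depth and levels were not analysed. A position with no call may be too thinly covered.

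Positions were looked up in GRCm38 and in GENCODE M21, which is not the release named by the study's methods. The base was A at 79102 of 79311 cerebellum sites and 187883 of 188247 cerebrum sites on the autosomes, X and Y. The stop codon was counted as coding. Each list was given the tissue that its sample label names, although the name of the cerebrum list also carries the abbreviation used for the cerebellum. The members, gene lists and contrasts were chosen with earlier results of these data known. Named were the 12 exons with the most members in both libraries, the 10 genes with the most members, the 5 shortest exons with a member in both, members in genes of m6A and the exon junction complex, and the 18 DRACH 5-mers. Ribosomal protein S6 kinases, which share a symbol prefix, were kept out of the ribosomal list. Background adenosines came from 9675 genes with a DRACH site.

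Odds ratios were Mantel-Haenszel estimates with Robins-Breslow-Greenland 95% intervals, with the exon or the gene as stratum, and a contrast was called where the interval left out 1. Ratios of odds ratios took both estimates as independent. No p-value was computed. The alternatives were the library, exon limit, distance limit, spliced 5-mer, transcript choice, gene filter and a conditional logistic model (survival 3.8.3, R 4.3.3). Restricting short against long exons to an edge distance, to GGACT or, on the short side only, to adenosines with no other form was added after seeing the data. So was counting only longer exons of other coding transcripts. The tools were Python 3.11.15, numpy 2.4.6, scipy 1.17.1, pandas 2.3.3 and, for figures, matplotlib 3.10.9. Each step that gives an odds ratio was first tested on simulated data.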

Additional observations from a re-analysis of the deposited data

How the results depend on the processing

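Of 117 alternative settings, 111 kept the direction and the call of a contrast, left a count of members within 1.5 times of the reported one, or left a share within its interval. In exons under 150 nt the odds ratio for being 50 nt or more from both edges turned to 0.993 (0.761 to 1.30), and with a distance limit of 30 nt it was 1.003 (0.875 to 1.15). The odds ratio beside a long internal exon was 1.495 (0.966 to 2.31) in exons under 150 nt, which leaves fewer adenosines. The number of members was 769 for exons under 150 nt and 2063 for exons under 250 nt, against 1380, and the share in both libraries was 6.89% there and 14.25% for exons under 250 nt. The causes were not tested. No paired analysis was possible because each tissue had 1 library, and the replicate numbers only name the samples. The lists give no reads, so a missing call cannot be told from thin coverage, and no replicate shows how far a call repeats within a tissue.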
